A study of Mus musculus with 6 samples.

Results

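The 10 genes studied here belong to the matricellular and elastic fibre proteins. These genes of the extracellular matrix were followed in Lewis lung carcinoma (LLC) cells that had grown in mice with or without bone marrow-derived mesenchymal stem cells (BMSCs). They are Fn1, Spp1, Tnc, Thbs1, Thbs2, Sparc, Postn, Fbln1, Fbln2 and Fbn1. They were chosen by name, and all 10 were found by symbol among the 18182 genes listed in at least 1 library. Matricellular proteins such as tenascin C, the thrombospondins, osteopontin, SPARC and periostin are secreted into the matrix but act mainly as signals to cells, through integrins and other surface receptors, rather than as scaffolding. Elastic fibres are a core of elastin laid down on microfibrils of fibrillin, and fibulins join the parts to each other and to the cell. In tumours these proteins are known mostly as products of stroma and of cancer cells that have changed shape or begun to invade.

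LLC is a carcinoma line of C57BL/6 mice. In both groups, wild type C57BL/6 mice received subcutaneous LLC-RFP cells, which carry a red fluorescent protein, and the red cells were sorted by flow cytometry from the primary tumours. In the group LLC alone nothing else was injected, and in the group LLC with BMSCs the same cells were injected together with mouse BMSCs bought as a cell product. The study's animal experiments used 6-week-old female mice, which were not stated separately for the sequenced tumours. There were 3 libraries per group, with 33476347 to 46189113 estimated counts each. No label says that the libraries of a group came from separate mice, so the p values measure the spread between these libraries, which may be technical. Because each library is a bulk sample, fewer cells of a type and less RNA per cell cannot be told apart.

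The library LLC alone 3 stood apart before any gene was compared. Its counts differed from those of LLC alone 1 and 2 by a mean chi-square per gene of 60.4 and 58.5, against 4.79 between LLC alone 1 and 2 and 3.03 to 19.6 within LLC with BMSCs. With genes in 5 equal classes of length, it was high in the shortest class, by a median of 0.31 on the log2 scale from the mean of the 6 libraries, and low in the longest, by a median of -0.37. After the sort, genes used as markers of other cell types were at different levels in the groups. The summed CPM (counts scaled by library total) of 14 markers of BMSCs and fibroblasts was 638 to 692 in LLC alone and 1076 to 1119 in LLC with BMSCs. Of the 12 that were tested, 11 were higher with BMSCs and 1 was lower, and Col3a1, the most abundant, had a mean of 226 and 550.2 CPM, while Thy1 was at 0 in LLC alone and averaged 0.0227 CPM with BMSCs. Macrophage markers summed to 13.4 to 14.0 CPM in LLC alone and 19.0 to 19.7 with BMSCs, with 5 of 6 tested higher and 1 lower. Of their defining genes, Adgre1 was at 0 and 1.53 CPM and C1qa at 0 and 0.053 CPM in the mean. The 1 lower was Cd68, the most abundant of the list, with a mean of 6.62 CPM in LLC alone and 3.61 with BMSCs. Its log2 fold change was -0.89 (edgeR adjusted p = 5.01e-04). Neutrophil markers, of which all 8 tested were higher, summed to 0.88 to 1.2 CPM in LLC alone and 39.3 to 43.1 with BMSCs. The most abundant of them was Mmp9, at a mean of 0.469 and 16.8 CPM. Ly6g could not be tested and went the other way, at a mean of 0.066 and 0.0376 CPM, and Retnlg was at 0 in all 6 libraries. Platelet markers, of which all 3 tested were higher, summed to 4.4 to 4.92 and 6.82 to 6.99 CPM. Over all tested genes, 31.5% were higher and 31.3% lower with BMSCs. The neutrophil genes S100a8, S100a9, Mmp8, Ngp, Camp and Csf3r had at most 0.0316 CPM in the mean of LLC alone. Together with Pf4, Adgre1, Mrc1, Col1a1, Dcn and Lum, they passed the filter on low counts only through the group with BMSCs. Such genes had to be higher once tested and give no weight to the number of markers called. Of the markers that check the LLC label, Vim averaged 1564 and 1396 CPM and Krt8 165 and 191 CPM, whereas Epcam and Cdh1 were below 0.1 CPM in the mean of either group. Whether reads of the markers of other cell types came from such cells or from the LLC cells was not tested. The part of any other cells in the results below was not tested either.

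As a description, sequences are given of the 250 bases before the RefSeq transcription start (build GRCm38.p6, strand as given, 5′ to 3′). They are shown for Tnc and Fbln1, which rose from nearly nothing, and for Thbs2 and Spp1, which fell. Promoter activity was not measured. The table lists 2 starts each for Tnc, Fbln1 and Spp1, and the first listed is shown. Capitals mark a match to TATAAA, the core letters bound by the TATA-binding protein, or to GGGCGG, the GC box of Sp1, on either strand.
Tnc (chr4:64047016-64047265, minus strand): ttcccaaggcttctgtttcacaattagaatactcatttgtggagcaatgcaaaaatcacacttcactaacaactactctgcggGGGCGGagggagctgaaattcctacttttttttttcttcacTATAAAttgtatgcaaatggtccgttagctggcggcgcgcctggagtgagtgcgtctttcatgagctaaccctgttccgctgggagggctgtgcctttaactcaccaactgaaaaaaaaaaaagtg
Fbln1 (chr15:85205699-85205948, plus strand): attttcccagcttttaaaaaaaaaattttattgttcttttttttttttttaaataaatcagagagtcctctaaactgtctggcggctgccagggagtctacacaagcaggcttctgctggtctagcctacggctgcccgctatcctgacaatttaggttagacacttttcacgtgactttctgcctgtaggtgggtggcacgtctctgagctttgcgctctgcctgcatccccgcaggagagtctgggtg
Thbs2 (chr17:14694263-14694512, minus strand): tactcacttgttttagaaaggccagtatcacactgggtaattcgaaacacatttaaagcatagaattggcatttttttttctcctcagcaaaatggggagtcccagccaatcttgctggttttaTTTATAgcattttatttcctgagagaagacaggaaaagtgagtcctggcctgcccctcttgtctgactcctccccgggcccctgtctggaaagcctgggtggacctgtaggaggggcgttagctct
Spp1 (chr5:104434861-104435110, plus strand): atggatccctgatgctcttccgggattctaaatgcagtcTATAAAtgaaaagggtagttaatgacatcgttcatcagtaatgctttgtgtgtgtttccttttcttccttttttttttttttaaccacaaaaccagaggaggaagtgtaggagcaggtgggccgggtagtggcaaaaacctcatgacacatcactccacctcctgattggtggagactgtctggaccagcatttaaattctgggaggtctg
Tnc held TATAAA beginning 126 bases before the start and GGGCGG 167 bases before it. Thbs2 held TATAAA on the opposite strand, its match beginning 126 bases before the start, and Spp1 held it 211 bases before. The Fbln1 window shown held neither, while that of its second start held GGGCGG on the opposite strand, beginning 11 bases before that start. Over the 32851 RefSeq starts with a window of this length, 12.4% held TATAAA and 32.7% held GGGCGG. TTCNNNGAA (STAT site), TGANTCA (AP-1 site) and GGAATG (TEAD site) were searched on both strands too, and were in 7.02%, 6.75% and 12.6% of all windows. None of these 3 was in the 12 windows of the 8 members that the promoter table held. The matches in these windows did not overlap each other. A match is a string of letters and not a shown binding site.

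Of the 10 genes, 9 passed the filter on low counts and could be tested. With BMSCs, Tnc, Fbln1, Fbln2, Thbs1 and Fbn1 were higher and Thbs2 and Spp1 were lower, at an adjusted p under 0.05 by the edgeR quasi-likelihood test with Benjamini-Hochberg adjustment over all 13353 genes tested. Fn1 and Sparc were tested and did not pass, and Postn could not be tested. Of all tested genes, 31.5% were called higher and 31.3% lower, so that 7 of 9 called here stand against 62.9% in either direction, and the count alone does not set these genes apart. The FPKM values (fragments divided by transcript length and library total, a level per length) of the groups did not overlap for 8 of the 9, against 70.6% of all tested genes. At an adjusted p under 0.001 together with at least a doubling or halving, 4 of the 9 (Tnc, Fbln2, Thbs1 and Fbln1) were higher beside 6.81% of tested genes, and 0 were lower beside 5.41%. Fbln1 passed the low-count filter only through the group with BMSCs and had to differ once tested, so it gives no weight to any of these counts. The median absolute log2 fold change was 1.0 for the 9 genes and 0.38 for all tested genes. With 3 libraries against 3, the exact two-sided permutation test on FPKM cannot give a p below 0.1, and it gave 0.1 for each of those 8 genes.

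**Figure D1:**
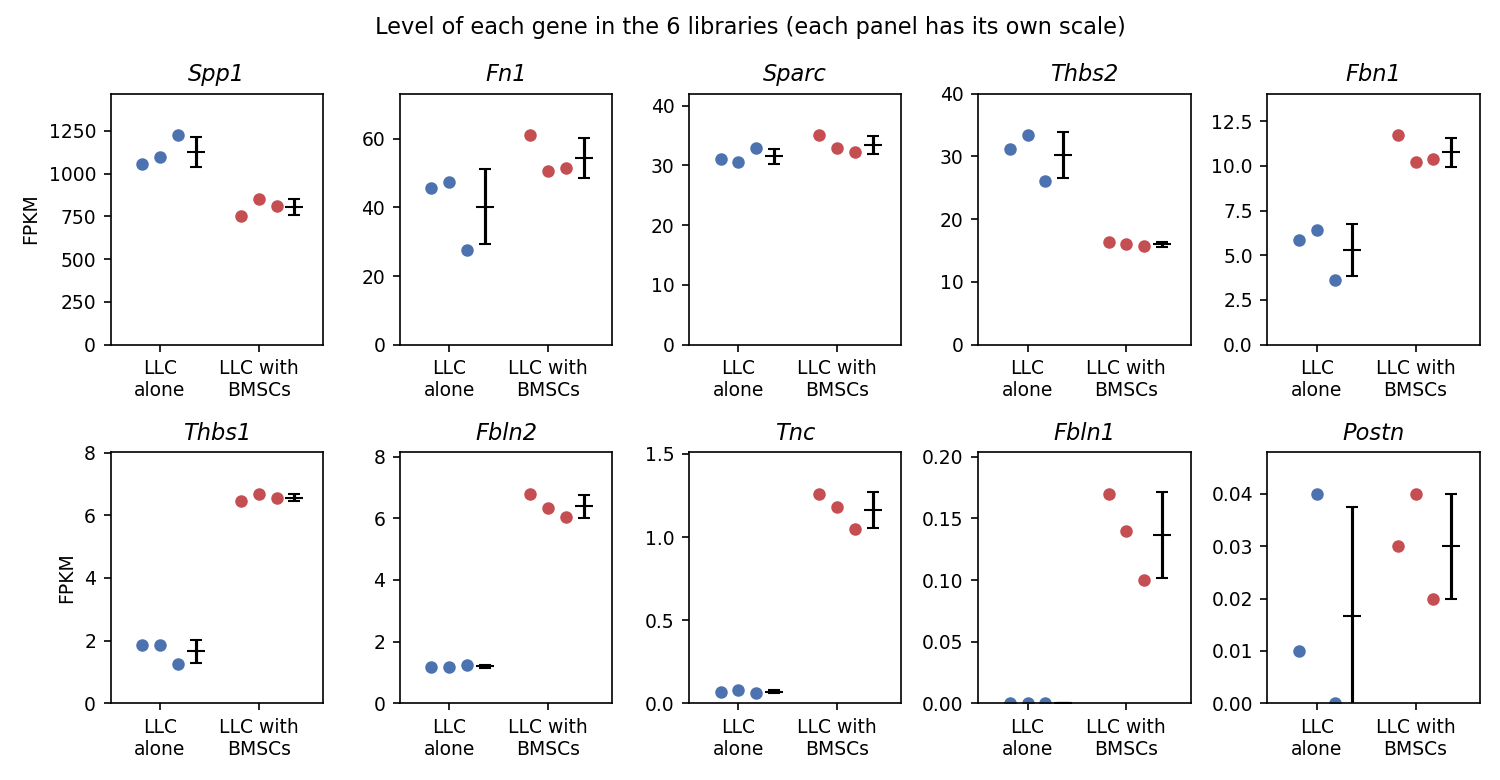
FPKM of each of the 10 genes (vertical axis, from 0, with a scale of its own in each panel) in the 3 libraries of LLC alone (blue points) and the 3 of LLC with BMSCs (red points), with black bars for the mean ± SD; the lower bar of Postn in LLC alone runs below 0. Tnc, Fbln1, Fbln2, Thbs1 and Fbn1 lie higher with BMSCs, Thbs2 and Spp1 lower, and the points of Sparc and Postn overlap.

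**Figure D2:**
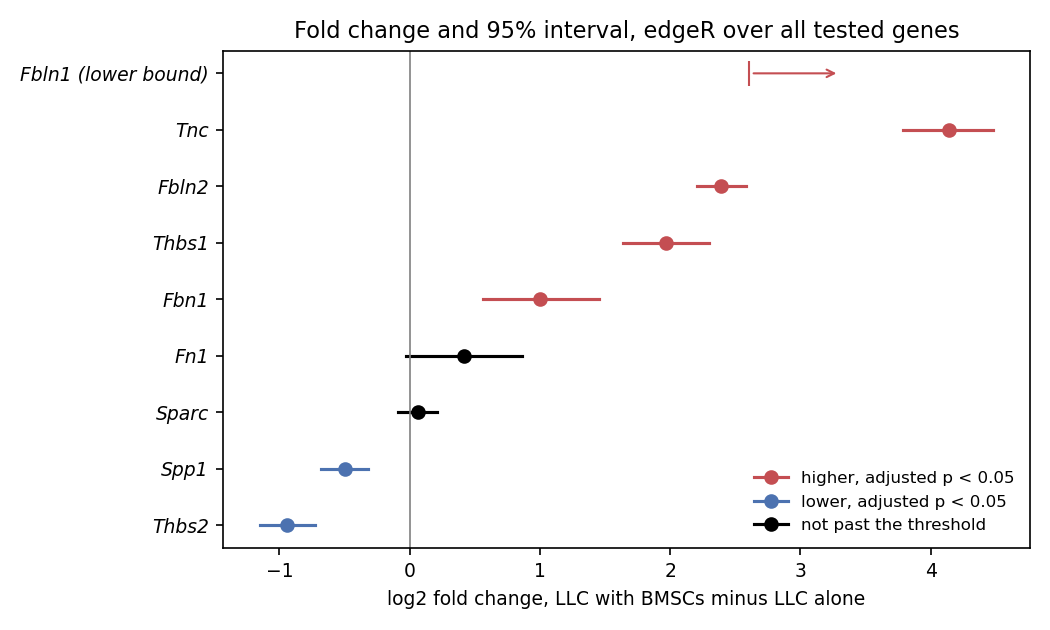
Fitted log2 fold change of LLC with BMSCs minus LLC alone (horizontal axis) with its 95% interval for the 8 genes with counts in both groups, and the lower bound of Fbln1 as a tick with an arrow. The values run from 4.14 for Tnc to -0.94 for Thbs2, and the intervals of Fn1 and Sparc include 0.

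Tnc encodes tenascin C, a hexameric glycoprotein that is scarce in most adult tissue and appears in wound edges and tumour stroma. It lies on chromosome 4 (GENCODE M21, GRCm38, 63959785 to 64047015, minus strand), and the coordinates of the other genes are from the same annotation. Its FPKM was 0.07, 0.08 and 0.06 in LLC alone and 1.26, 1.18 and 1.05 with BMSCs, from 22, 17 and 18 estimated counts against 395, 365 and 321. Every library with BMSCs was far above every library without them. The fitted difference was 17.6-fold, a log2 fold change of 4.14 (SE 0.148, edgeR adjusted p = 6.29e-07), with a 95% interval of 3.79 to 4.48. Even so, Tnc stayed low in level, at 1.16 ± 0.106 FPKM (SD, n = 3) with BMSCs. Tnc is long, at the 92.1 percentile of length among tested genes. With the length trend of the libraries removed its log2 fold change was 3.85 (edgeR adjusted p = 6.86e-08). Its reads were divided between the RefSeq transcript NM_011607, at 1.16, 1.18 and 0.78 FPKM with BMSCs, and a transcript assembled by the authors at 0.11, 0 and 0.27 FPKM.

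Thbs1 and Thbs2 encode thrombospondins 1 and 2, close relatives that form trimers, bind CD47 and CD36 and restrain the growth of blood vessels. Thrombospondin 1 alone of the pair is known to activate latent TGF-beta. The paralogs moved in opposite directions. Thbs1 (chromosome 2, 118111876 to 118127133, plus strand) had 1.87, 1.85 and 1.24 FPKM in LLC alone and 6.46, 6.68 and 6.54 with BMSCs. The lowest library with BMSCs was above the highest without. The difference was 3.92-fold, a log2 fold change of 1.97 (SE 0.141, edgeR adjusted p = 1.83e-05). Thbs2 (chromosome 17, 14665500 to 14694235, minus strand) had 31.24, 33.35 and 26.09 FPKM in LLC alone and 16.39, 15.99 and 15.65 with BMSCs. It fell in every library with BMSCs below every library of LLC alone, by 0.94 on the log2 scale (SE 0.091, edgeR adjusted p = 8.23e-05), to 0.523 of its former level. Both genes are long, at the 87.2 percentile of length for Thbs1 and 87.5 for Thbs2. With the length trend of the libraries removed, the log2 fold change was 1.75 for Thbs1 (edgeR adjusted p = 2.84e-07) and -1.17 for Thbs2 (edgeR adjusted p = 5.54e-08). The ratio of Thbs2 to Thbs1 FPKM was 16.7, 18 and 21.0 in LLC alone and 2.54, 2.39 and 2.39 with BMSCs. Thbs2 thus stayed the more abundant of the pair in all 6 libraries, and their summed FPKM went from 31.9 ± 4.08 to 22.6 ± 0.341 (SD, n = 3 per group, exact permutation p = 0.1, the smallest possible). The length trend was not removed from this ratio or this sum. Of the markers of platelets, which carry thrombospondin 1, Ppbp had a mean of 2.80 CPM in LLC alone and 3.93 with BMSCs, Itga2b 1.54 and 2.19, and Pf4 0.0832 and 0.626. The rest of that list was near 0 and could not be tested. Gp9 had a mean of 0.0289 and 0.053 CPM, Gp5 0.0505 and 0.0832, Treml1 0 and 0.0303, and Gp1bb 0.0835 and 0. The part of platelets in the level of Thbs1 was not tested.

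**Figure D3:**
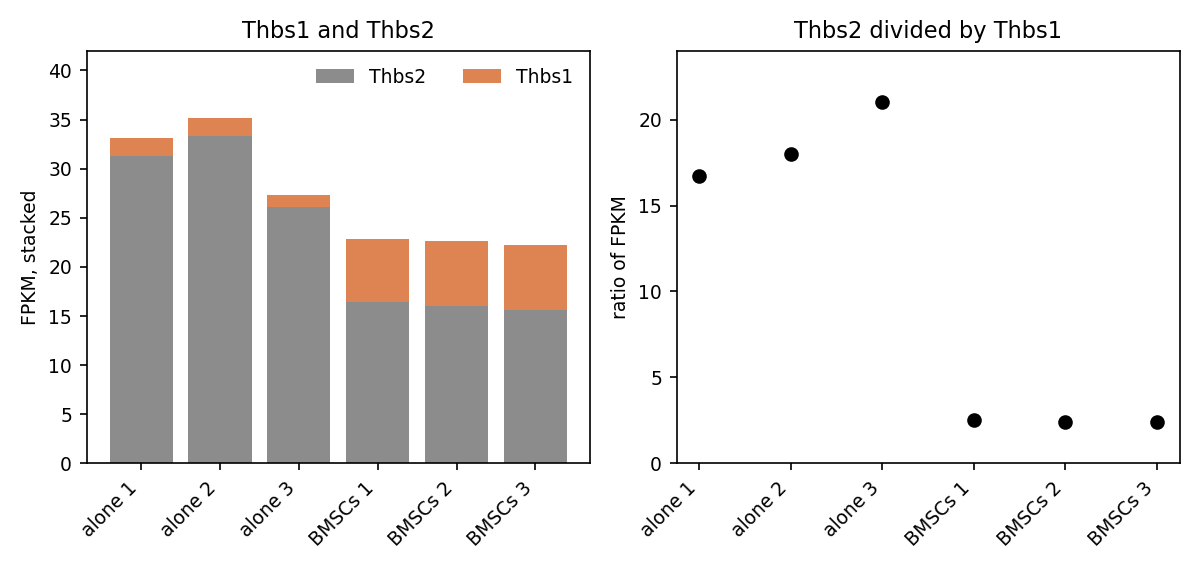
Left, FPKM of Thbs2 (grey) and Thbs1 (orange) stacked for each of the 3 libraries of LLC alone and the 3 of LLC with BMSCs; right, the ratio of Thbs2 to Thbs1 FPKM in the same libraries. The ratio lies between 16.7 and 21.0 in LLC alone and between 2.39 and 2.54 with BMSCs.

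Thbs1 reads were assigned to the RefSeq transcripts NM_011580 and NM_001313914. NM_011580 took 66.3%, 19.5% and 32.8% of the Thbs1 FPKM in LLC alone and 73.2%, 55.8% and 55.7% with BMSCs. These ranges overlapped (exact permutation p = 0.3), and the split between the transcripts is an estimate from shared reads. All Thbs2 reads were assigned to NM_011581.

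Spp1 encodes osteopontin, a phosphorylated ligand of integrins and of CD44 that is made by bone cells, activated macrophages and many carcinomas. It was by far the most abundant of the 10 genes, between the 71st and the 94th place of all genes by FPKM. Its FPKM was 1055.27, 1095.19 and 1224.10 in LLC alone and 754.98, 852.04 and 808.33 with BMSCs. The groups did not overlap, and Spp1 fell by 0.50 on the log2 scale (SE 0.076, edgeR adjusted p = 7.99e-04), to 0.706 of its level in LLC alone. Spp1 (chromosome 5, 104435118 to 104441050, plus strand) is a short gene among those tested, at the 16.8 percentile of length, and with the length trend of the libraries removed it fell by 0.32 and was still called (edgeR adjusted p = 1.18e-04). Because of its size it set the sum of the 10 genes, which was 1235 ± 74.2 FPKM in LLC alone and 934 ± 41.1 with BMSCs (SD, n = 3 per group). Without Spp1 the sum ran the other way, from 110.2 ± 15.2 to 129 ± 8.78 FPKM, with ranges that did not overlap (exact permutation p = 0.1 for both sums). Per library, the sum without Spp1 was 117, 121 and 92.8 in LLC alone and 139, 124 and 123 with BMSCs, lowest in LLC alone 3. The largest part of it was Fn1, which was not called, and the length trend was not removed from this sum.

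The transcripts of Spp1 differed in share. NM_009263 took 89.5%, 89.0% and 89.7% of the Spp1 FPKM in LLC alone and 85.6%, 85.7% and 85.8% with BMSCs. NM_001204202, whose first exon is longer, took 10.2%, 10.5% and 10.1% and then 14.1%, 13.9% and 13.7%. The groups did not overlap for either transcript, at 89.4% ± 0.332 against 85.7% ± 0.135 for the first and 10.2% ± 0.219 against 13.9% ± 0.193 for the second (SD, n = 3 per group). The exact permutation p was 0.1, the smallest that 3 libraries against 3 allow. In level, NM_001204202 was at 115 ± 7.8 FPKM in LLC alone and 112 ± 6.15 with BMSCs, with ranges that overlapped. NM_009263 went from 1006 ± 81.4 to 690.2 ± 42.3 FPKM, so the larger share of NM_001204202 came with a fall of NM_009263 and not with a rise of its own.

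Sparc encodes SPARC (osteonectin), a collagen-binding protein of matrix assembly (chromosome 11, 55394500 to 55423183, minus strand). It did not pass the test. It had 31.04, 30.51 and 32.96 FPKM in LLC alone and 35.02, 32.89 and 32.17 with BMSCs. The groups overlapped, and the log2 fold change was 0.06 (SE 0.065, edgeR adjusted p = 0.428), with a 95% interval of -0.09 to 0.21. A change within this interval is not excluded, and the interval is not a limit of detection. NM_009242 held 80.1% ± 2.24 of the Sparc FPKM in LLC alone and 80.5% ± 1.54 with BMSCs (SD, n = 3 per group).

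Postn encodes periostin, a partner of collagen and tenascin C and a textbook product of activated fibroblasts. Postn (chromosome 3, 54361109 to 54391037, plus strand) was close to the detection limit in both groups. Its estimated counts were 1, 4 and 0 in LLC alone and 4, 5 and 2 with BMSCs, which is at most 0.04 FPKM in any library. No fold is given for so few counts, and a difference between the groups was not detectable at this depth.

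Fn1 encodes fibronectin, the adhesive glycoprotein that integrin alpha5 beta1 assembles into fibrils and that is often used as a marker of mesenchymal cells. Fn1 lies on chromosome 1 (71585520 to 71653200, minus strand). Its FPKM was 45.81, 47.39 and 27.58 in LLC alone and 61.02, 50.54 and 51.37 with BMSCs. The groups did not overlap, but LLC alone 3 was well below its own group. The log2 fold change was 0.42 (SE 0.192, edgeR adjusted p = 0.091, unadjusted p = 0.0628), with a 95% interval of -0.03 to 0.86. Fn1 is long, at the 95.3 percentile of tested genes, and LLC alone 3 was 0.74 lower than the mean of LLC alone 1 and 2 on the log2 scale, where the length trend alone gives -0.45. Without LLC alone 3 the log2 fold change shrank to 0.21 and passed the threshold (edgeR adjusted p = 0.0417). With the length trend removed it was 0.12 (edgeR adjusted p = 0.26), so its size and its call differed between these fits.

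Fibronectin is spliced at 3 places, and the exons EDA and EDB, each an extra type III repeat, are known from embryonic, healing and tumour tissue. They are shown because the files separate transcripts with and without them. The sequences are from GENCODE M21 (GRCm38, minus strand, 5′ to 3′), where they are exons 33 and 25 of the 46 exons of NM_010233, both coding.
EDA exon (chr1:71603660-71603929): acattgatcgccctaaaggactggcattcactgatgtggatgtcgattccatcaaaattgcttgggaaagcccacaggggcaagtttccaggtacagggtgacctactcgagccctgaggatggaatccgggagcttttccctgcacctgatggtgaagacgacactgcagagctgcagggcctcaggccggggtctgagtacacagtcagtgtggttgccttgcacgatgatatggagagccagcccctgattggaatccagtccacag
EDB exon (chr1:71613763-71614035): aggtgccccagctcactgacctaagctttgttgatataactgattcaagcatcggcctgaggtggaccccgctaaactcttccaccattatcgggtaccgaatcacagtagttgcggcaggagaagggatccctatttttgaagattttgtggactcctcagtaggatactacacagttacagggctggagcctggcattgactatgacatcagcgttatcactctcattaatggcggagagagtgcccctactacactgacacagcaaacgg
Of the 7 RefSeq transcripts of Fn1 in the files, 4 hold the EDA exon of 270 bases and 1 the EDB exon of 273 bases. Transcripts with EDA made up 62.0%, 60.1% and 65.0% of the FPKM of these 7 in LLC alone and 61.4%, 68.7% and 68.0% with BMSCs. The ranges overlapped (exact permutation p = 0.3). The transcript with EDB made up 25.5%, 19.3% and 22.0% in LLC alone and 28.2%, 26.7% and 27.0% with BMSCs. All 3 libraries with BMSCs were above all 3 without, a difference of 22.3% ± 3.08 against 27.3% ± 0.768 (SD, n = 3 per group, exact permutation p = 0.1, the smallest possible). At the third place, the variable region, the whole exon of 467 bases was in 96.5% ± 0.387 and 96.8% ± 0.85 of the FPKM. A further transcript that the authors assembled, whose structure the values do not give, took 0, 2.17% and 0 of all Fn1 FPKM in LLC alone and 0, 9.26% and 7.63% with BMSCs, and it was left out of these shares. With it counted in the total, the EDB transcript NM_010233 took a mean of 22.1% in LLC alone and 25.8% with BMSCs. The ranges of the groups then overlapped, so the separation for EDB depends on leaving it out.

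**Figure D4:**
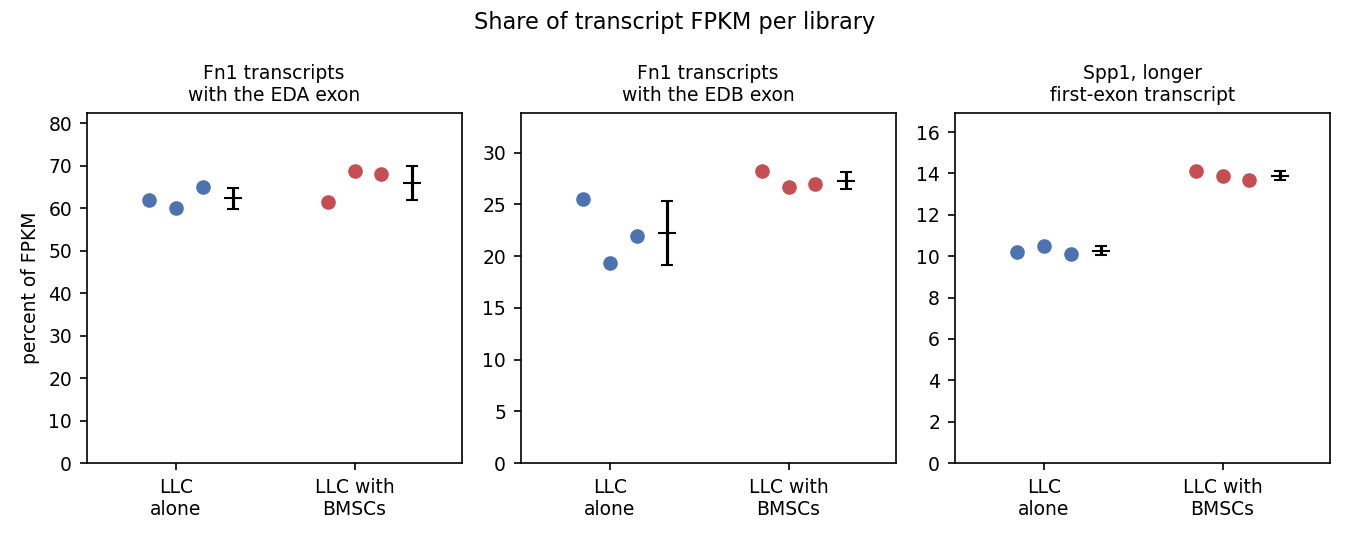
Share of FPKM (percent, vertical axis from 0) of Fn1 transcripts with the EDA exon, of the Fn1 transcript with the EDB exon and of the Spp1 transcript NM_001204202 in the 3 libraries of LLC alone (blue) and the 3 of LLC with BMSCs (red), with the mean ± SD in black. The groups overlap for EDA and do not overlap for EDB (at most 25.5% against at least 26.7%) or for the Spp1 transcript (at most 10.5% against at least 13.7%).

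Fbn1 encodes fibrillin-1, the backbone of the microfibrils that hold latent TGF-beta and carry elastin. Its FPKM was 5.87, 6.40 and 3.64 in LLC alone and 11.71, 10.21 and 10.39 with BMSCs. All libraries with BMSCs lay above those without, and LLC alone 3 was the lowest of the 6. The difference was 2.01-fold, a log2 fold change of 1.0 (SE 0.191, edgeR adjusted p = 0.00247). Fbn1 (chromosome 2, 125300594 to 125507993, minus strand) is among the longest genes tested, at the 97.9 percentile. With the length trend removed its log2 fold change was 0.65 (edgeR adjusted p = 3.89e-05), and without LLC alone 3 it was 0.80 (edgeR adjusted p = 2.20e-05), so the gene stayed called and its size did not stay the same.

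Fbln1 and Fbln2 encode fibulins 1 and 2, which bind fibronectin, fibrillin and basement membrane proteins. Fbln2 (chromosome 6, 91212455 to 91272540, plus strand) had 1.17, 1.17 and 1.25 FPKM in LLC alone and 6.79, 6.32 and 6.03 with BMSCs. The groups were far apart and tight, with coefficients of variation of 3.86% and 6.01%. The difference was 5.25-fold, a log2 fold change of 2.39 (SE 0.079, edgeR adjusted p = 5.14e-07). Nearly all of it was the transcript NM_001081437, with 97.7% ± 3.91 and 98.1% ± 2.17 of the Fbln2 FPKM (SD, n = 3 per group).

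Fbln1 (chromosome 15, 85205949 to 85286535, plus strand) was listed at 0 in all 3 libraries of LLC alone. With BMSCs it had 25, 20 and 15 estimated counts, or 0.17, 0.14 and 0.10 FPKM. Taken against a floor of 3 counts per library in LLC alone, it was at least 6.1-fold higher (edgeR adjusted p = 5.00e-04), a bound for counting error only. It passed the filter on low counts only through the group where it was present, so a tested Fbln1 had to differ. Among the markers of BMSCs and fibroblasts, Dcn and Col1a1 were also near 0 in LLC alone, with a mean of 0.195 and 0.0831 CPM against 11.5 and 11.8 CPM with BMSCs. Others of that list were high in both groups, such as Prrx1 at 138 and 219 CPM and Eng at 97.0 and 118 CPM, and Twist2 was lower with BMSCs, at 131 and 53.9 CPM.

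Set side by side per length, the order of mean FPKM in LLC alone was Spp1, Fn1, Sparc, Thbs2, Fbn1, Thbs1, Fbln2, Tnc, Postn and Fbln1. Neighbours whose ranges overlapped, and which therefore did not differ beyond their spread, were Fn1 and Sparc, Sparc and Thbs2, Thbs1 and Fbln2, and Postn and Fbln1. With BMSCs the first 8 places were the same, Fbln1 moved above Postn, and only Thbs1 and Fbln2 overlapped. Spp1 was 30.2 ± 12.3 times as high as Fn1 in FPKM in LLC alone and 15 ± 2.33 times with BMSCs (SD of the ratio, n = 3 per group). Fbn1 was 4.47 ± 1.37 times as high as Fbln2 in LLC alone and 1.69 ± 0.0625 times with BMSCs. Neither ratio overlapped between the groups (exact permutation p = 0.1 for each). Both means of LLC alone depend on LLC alone 3. Spp1 to Fn1 was 23.0 and 23.1 in LLC alone 1 and 2 and 44.4 in LLC alone 3, and Fbn1 to Fbln2 was 5.02, 5.47 and 2.91. The length trend was not removed from these ratios. Together the 10 genes took 0.218% ± 0.00411 of all counts in LLC alone and 0.190% ± 0.00304 with BMSCs.

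Among 23 other matricellular genes, 22 were in the files and 15 passed the low-count filter. Of these, 5 were higher with BMSCs, 6 were lower and 4 did not pass, with a median log2 fold change of 0.02 beside 0.012 for all tested genes, of which 31.5% were higher and 31.3% lower. The 5 called higher were 3 without LLC alone 2 or without any 1 of the libraries with BMSCs, and 3 with DESeq2. Fstl1, a secreted SPARC relative, was the most abundant that rose, from 43.7 ± 1.75 to 83.7 ± 2.03 FPKM (log2 fold change 0.92, SE 0.056, edgeR adjusted p = 8.07e-06), and Tgfbi, an integrin ligand induced by TGF-beta, rose by 0.19 on the log2 scale (SE 0.069, edgeR adjusted p = 0.0434). The call of Tgfbi was lost under 10 of 18 alternatives, among them DESeq2 (adjusted p = 0.0682) and the omission of any library but LLC alone 3 (edgeR adjusted p = 0.0526 to 0.121). Thbs3, another thrombospondin, fell by 0.58 (SE 0.054, edgeR adjusted p = 7.09e-05), in the direction of Thbs2 and not of Thbs1. Wisp1 (CCN4) fell by 0.38 (SE 0.068, edgeR adjusted p = 0.00171). Tnxb, the tenascin X gene, fell by 0.40 (SE 0.121, edgeR adjusted p = 0.0199), in the direction opposite to Tnc, and its call was lost without any 1 of 4 libraries, LLC alone 1 or 2 or LLC with BMSCs 2 or 3 (edgeR adjusted p = 0.0606 to 0.0701). Ctgf (CCN2), chosen after its values were seen, was at 0 counts in LLC alone and at least 10.9-fold higher with BMSCs, at 0.343 ± 0.00577 FPKM (SD, n = 3). Like Fbln1, Ctgf, Nov and Wisp3 passed the low-count filter only through the group with BMSCs. Wisp2 and Spock2, both called lower, passed it only through LLC alone. Such genes lean towards a difference in that direction once tested, and give no weight to the numbers called in this list. A call is still not certain for such low counts. Tnn, with at most 8 counts in a library of LLC alone and 14 with BMSCs, was tested and not called (edgeR adjusted p = 0.0734). The tenascins Tnn and Tnr were below 0.2 FPKM and did not pass.

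Among 26 other genes of elastic fibres and microfibrils, 25 were in the files and 16 passed the low-count filter. With BMSCs 10 were higher, 4 were lower and 2 did not pass, and the median log2 fold change was 0.58, beside 31.5% higher, 31.3% lower and a median of 0.012 over all tested genes. Of the 5 lysyl oxidases, the enzymes that crosslink elastin and collagen, Lox, Loxl2 and Loxl3 were called higher, Loxl4 did not pass (0.17, edgeR adjusted p = 0.103) and Loxl1 could not be tested. Loxl2 rose from 7.92 ± 0.886 to 28.7 ± 0.922 FPKM (log2 fold change 1.83, SE 0.09, edgeR adjusted p = 2.77e-06). Lox had 0.02 ± 0.01 FPKM in LLC alone, from at most 5 counts in a library, and 3.30 ± 0.119 FPKM with BMSCs. Like Fbln1, it passed the filter only through the group where it was high and had to differ once tested, so its fitted log2 fold change of 7.40 is a description and rests on few counts. Adamts10, a protease that binds fibrillin-1, rose by 1.28 on the log2 scale (SE 0.103, edgeR adjusted p = 3.25e-05). Fbln5, the fibulin that guides elastin onto microfibrils, fell by 2.33 (SE 0.078, edgeR adjusted p = 5.22e-07), from 2.75 ± 0.0473 to 0.557 ± 0.0208 FPKM, in contrast to Fbln1 and Fbln2. Thsd4, a promoter of fibrillin assembly, fell by 1.41 (SE 0.162, edgeR adjusted p = 1.94e-04), and Ltbp1, which ties latent TGF-beta to fibrillin, fell by 0.52 (SE 0.077, edgeR adjusted p = 6.85e-04). Other Ltbp genes did not fall with it. Ltbp3 rose by 1.02 (SE 0.079, edgeR adjusted p = 2.65e-05), from 16.9 ± 1.19 to 33.1 ± 2.45 FPKM. Ltbp2 rose by 2.3 (SE 0.153, edgeR adjusted p = 1.23e-05), and Ltbp4 did not pass (-0.12, edgeR adjusted p = 0.274). Elastin itself, Eln, could not be tested, with a mean of 0.00667 and 0.01 FPKM, and the microfibril genes Mfap2, Mfap4 and Mfap5 were all below 0.1 FPKM in the mean of either group.

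Among 19 genes for receptors of these proteins, 18 were in the files and 14 passed the low-count filter. With BMSCs 10 were higher, 2 were lower and 2 did not pass, and the median log2 fold change was 0.68, beside the same 31.5%, 31.3% and 0.012 over all tested genes. Itgb3, the integrin beta3 subunit that with Itgav forms a receptor of osteopontin, fibronectin and thrombospondin, went from 0.0633 ± 0.00577 to 0.937 ± 0.0252 FPKM (3.88, SE 0.14, edgeR adjusted p = 6.46e-07). Itgav rose from 13.0 ± 2.23 to 32.4 ± 0.686 FPKM (1.29, SE 0.118, edgeR adjusted p = 6.24e-05). Stab1, a scavenger receptor that takes up SPARC and is usual in macrophages and sinus endothelium, rose by 3.89 on the log2 scale (SE 0.103, edgeR adjusted p = 1.93e-07), from 0.213 ± 0.0208 to 3.19 ± 0.243 FPKM. Itgb5 fell by 0.28 (SE 0.057, edgeR adjusted p = 0.00333) and Calr, a chaperone that at the cell surface binds thrombospondin, fell by 0.26 (SE 0.062, edgeR adjusted p = 0.00705). Both calls were lost with the close pairs of libraries summed (edgeR adjusted p = 0.0653 and 0.0691). The thrombospondin receptor Cd36 was at most a mean of 0.00667 FPKM and could not be tested, and Cd47 did not pass (0.15, SE 0.059, edgeR adjusted p = 0.0549).

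**Figure D5:**
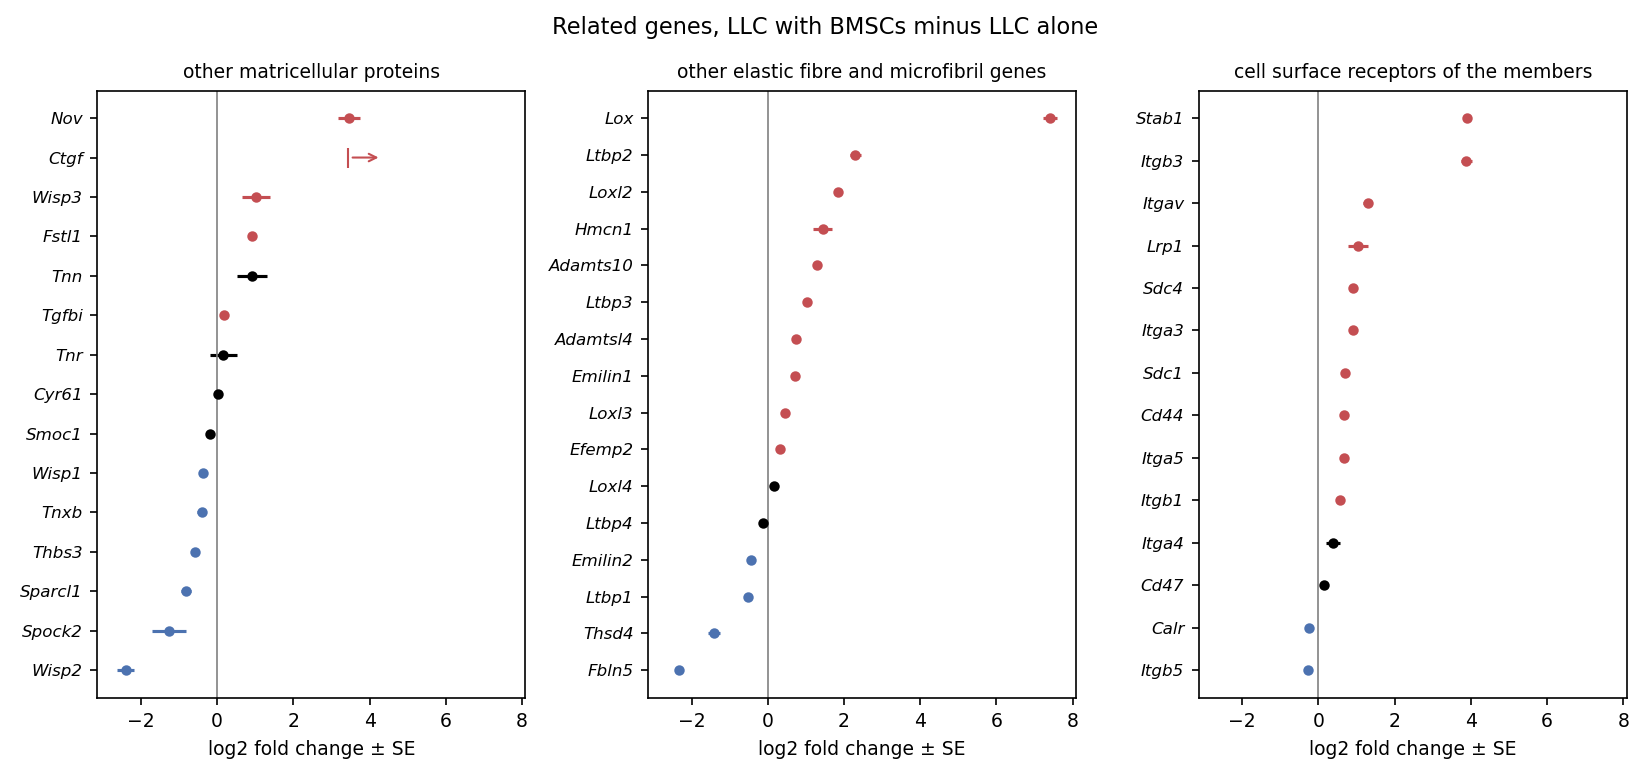
Fitted log2 fold change ± SE (horizontal axis, LLC with BMSCs minus LLC alone) of the tested genes of 3 related lists, in red where called higher, blue where called lower and black where not past the threshold; Ctgf, at 0 counts in LLC alone, is drawn at its lower bound with an arrow. Lox stands farthest to the right at 7.40 and Wisp2 farthest to the left at -2.40.

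For the 3 members with the largest fitted change, the genes nearest in pattern were sought among 10595 genes with a symbol and at least 100 normalized counts, by the root mean square difference of log2 CPM centred on each gene's own mean over the 6 libraries. Nearest to Tnc were Stab1 at 0.10, Ifih1 at 0.191 and Birc3 at 0.197. Nearest to Fbln2 were Tap1 at 0.047, Nfkbie at 0.063 and Oasl1 at 0.077. For Fbln1 the nearest were Selenbp1, Irgm2 and Stat2 at 0.173 to 0.197, but its pattern in LLC alone is set by the prior count of 2 and not by reads. With a pair of groups and 6 libraries, such likeness is mostly a like difference between the groups.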

How the data were processed

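RNA of sorted LLC cells was enriched with oligo-dT beads and sequenced on the BGISEQ-500 as paired reads, per the study's methods, while the labels name Illumina library protocols. Per gene and transcript, the authors deposited estimated counts, which need not be whole, and FPKM values. The submitters' processing notes name HISAT, StringTie, Cufflinks and GATK and the build mm8, without roles. Coordinates and sequences are from GENCODE M21 and RefSeq on GRCm38 and not from the files. Strand use in counting is not given in the sources used here. Reads shared by paralogs or transcripts are divided by estimation.

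The counts were rounded, normalized by TMM and filtered for low counts by default in edgeR 4.0.16 (R 4.3.3), which left 13353 of 18182 genes. The groups were compared with its quasi-likelihood test, and p values were adjusted by Benjamini-Hochberg with 0.05 as the limit. The standard error is the absolute log2 fold change over the square root of the test statistic. Genes at 0 in LLC alone were given a bound against 3 counts per library. Depth was 33476347 to 46189113 estimated counts, so 3 counts equal at most 0.0896 CPM. Alternatives used DESeq2 1.42.0, limma 3.58.1 on log2(FPKM + 1) and log2(FPKM + 0.1), other scalings and filters, offsets for each library's trend over gene length, summed close pairs and left-out libraries. The scripts were tested on simulated data.

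All 10 members were named, and in each related list the up to 3 largest rises and falls past that limit with 100 or more normalized counts on average, while other list genes were chosen after their values were seen. The members and lists were chosen with earlier results of these data known. Proteins were not analysed here, and the promoter table held 8 of the 10 genes.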

Additional observations from a re-analysis of the deposited data

How the results depend on the processing

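Under 18 alternatives of the fit, 156 of 159 fold changes of the 9 tested genes kept their direction and their side of the threshold, none reversed, and the 3 that differed were all of Fn1. Fn1 passed the threshold with DESeq2 (0.42, adjusted p = 0.0414), with the replicate number as a replicate block (0.45, edgeR adjusted p = 0.0249) and without LLC alone replicate 3; over the left-out libraries it ranged from 0.21 to 0.55. The replicate numbers of the groups do not pair the libraries (correlations of same-numbered deviations 0.073, -0.11 and 0.059), and LLC with BMSCs 1 did not correlate best with its own number. The block changed no other member's call, and left 4161 genes higher and 4058 lower over the whole table against 4210 and 4183. Tnc ranged from 1.01 with limma on log2(FPKM + 1), where the pseudocount exceeds its level in LLC alone, to 4.21, Fbn1 from 0.65 to 1.16, Spp1 from -0.56 to -0.32 and Thbs2 from -1.17 to -0.86. Fbln1 could not be fitted with at least 10 counts in every library or at least 1 FPKM in 3 libraries.

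With the limits set at 0.001 for the adjusted p and 1 for the absolute log2 fold change, 4 members were higher and 0 lower, with 910 and 723 genes over the whole table, 2 and 1 of the other matricellular genes, 5 and 2 of the elastic fibre genes and 3 and 0 of the receptors. The other matricellular genes called higher, 5 in the fit reported, were 3 with DESeq2, no filter, the replicate block or close pairs summed, and 2 with at least 10 counts or limma with the FPKM filter, which also left 2 called lower in place of 6. Ctgf, Nov, Wisp3, Wisp2 and Spock2 fell short of both of these filters, and Tnxb and Sparcl1 of the FPKM filter. They were therefore not fitted there. The genes called higher were 3 to 4 over the left-out libraries. Of 283 alternative values of the 16 related genes named by rule, 266 kept their call, 17 lost it (10 of Tgfbi, 5 of Tnxb, 1 each of Itgb5 and Calr) and 0 reversed. Receptors called lower were 0 with close pairs summed. For Fn1 and for the counts that moved without a change of these filters, the cause was not tested. The order of the members by level kept all 10 places on log2(FPKM + 0.1), and 8 without LLC alone replicate 3. Of 26 transcript shares, 5 moved by more than the spread between libraries in estimated counts in place of FPKM, by less than the difference between the groups. With Ctgf and Fbln1 at their bounds the medians of their lists were unchanged at 0.02 and 1.0. With 3 libraries per group and few counts, Postn and most genes under 0.1 FPKM could not be tested.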
